A study of Mus musculus with 20 samples.

Results

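The CG-densest promoters of the table were examined, that is the probes holding over 100 CG sites on chromosomes 1 to 19. Left out were 10 symbol families (Mir, Hox, Sox, Fox, Pax, Lhx, Tbx, Gata, Zfp and the sine oculis homeobox genes) and genes marked as imprinted. Of 22480 promoters, 1823 held over 100 CG sites, and 1697 (7.55% of all) remained after removal of 106 by symbol, 9 by imprinting and 11 on the sex chromosomes. A probe covers 2.2 kb, from 2 kb upstream to 200 bp downstream of the gene start. The values are numbers of normalized read-pairs from MBD-sequencing of sperm DNA, in which a methyl-CpG binding domain captures methylated fragments. Males of 8 weeks were compared whose mothers, of the C57BL/6J or the FVB/N strain, received oral DEHP (bis(2-ethylhexyl)phthalate, a plasticizer) in corn oil at 300 mg/kg/day from day 9 to 19 of gestation. Control mothers of both strains received corn oil alone over the same days. Each of the 4 groups held 5 males, with 20 libraries in all. The table gives the authors' mean and SD per group with 1 decimal and no single library, and no test between animals was run. The depth of each library is not in the table. DEHP and control DNA went to the sequencing provider as separate submissions with different read lengths, so the effect of treatment and that of submission cannot be told apart. Over all promoters the authors' means summed to 226268 normalized read-pairs for C57BL/6J controls and 153283 for their DEHP group, and to 141092 and 150346 for the FVB/N groups. Where 4 values are listed, they follow this order, with C57BL/6J first and the control before DEHP. The authors kept only probes with reads in several samples, so CG-dense promoters without reads are underrepresented.

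A CpG island is a stretch of DNA that has kept the CG dinucleotides lost from most of the genome, and most islands lie at gene starts. Islands at gene starts are usually free of methylation in germ cells, also when the gene is silent. The capture step pulls down methylated CG sites only, so an unmethylated island gives few reads however many CG sites it holds. The members held a median of 119 CG sites, with quartiles of 108 and 139 and up to 303, which is 1 site per 18.5 bp at the median, against a median of 45 over all promoters. The reference GRCm38.p6, which shares its coordinates with mm10, gave the same number of CG sites for 1492 members (87.9%) and differed by at most 2 for the rest.

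Dense runs of CG sites stood both in promoters with many reads and in promoters with few, and stretches from 3 promoters of each kind are shown. Each is the 150 bases with the most CG sites outside annotated untranslated exons, taken from GRCm38.p6 in the direction of the named gene, with CG sites in capitals. The first lies 1783 to 1634 bases upstream of the start of Pced1b (chr15:97245324-97245473 of mm10, plus strand), holds 12 CG sites and is coding sequence of the neighbouring Amigo2. The second lies 849 to 700 bases upstream of the start of Mrpl43 (chr19:45007142-45007291 of mm10, minus strand), holds 10 CG sites and is coding sequence of Twnk, which encodes a mitochondrial DNA helicase. The third lies 373 to 224 bases upstream of the start of Cdh24 (chr14:54641588-54641737 of mm10, minus strand), with 17 CG sites and no coding sequence. Pced1b had 72.0 normalized read-pairs in C57BL/6J controls, Mrpl43 55.2 and Cdh24 52.6. These counts are for whole probes, so whether the reads of any promoter shown lie on its printed stretch is not known.
Pced1b: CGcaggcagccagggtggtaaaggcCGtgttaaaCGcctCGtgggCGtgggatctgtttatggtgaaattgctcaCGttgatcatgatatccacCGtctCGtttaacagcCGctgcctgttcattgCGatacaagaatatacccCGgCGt
Mrpl43: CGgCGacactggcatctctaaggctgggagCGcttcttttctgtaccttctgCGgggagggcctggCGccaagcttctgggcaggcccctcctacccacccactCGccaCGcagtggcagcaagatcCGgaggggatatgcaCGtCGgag
Cdh24: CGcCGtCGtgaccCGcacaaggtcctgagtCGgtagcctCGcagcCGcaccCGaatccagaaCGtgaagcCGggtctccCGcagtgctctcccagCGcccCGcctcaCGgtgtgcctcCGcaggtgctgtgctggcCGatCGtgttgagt

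In 3 promoters with few reads the stretches chosen in this way held more CG sites. These promoters were themselves picked among members with at least 150 CG sites or with the most CG sites, which favours that order. The stretch of Zic2 lies 164 to 15 bases upstream of the start of Zic2 (chr14:122475220-122475369 of mm10, plus strand) and holds 22 CG sites, and that of Arid2 lies 387 to 238 bases upstream of the start of Arid2 (chr15:96287135-96287284 of mm10, plus strand) and holds 29. The stretch of 4921531C22Rik lies 1017 to 868 bases upstream of the start of 4921531C22Rik (chr2:179975836-179975985 of mm10, plus strand), holds 36 CG sites and is coding sequence of Taf4, a subunit of a general transcription factor. Zic2 had 0.9 normalized read-pairs in C57BL/6J controls, Arid2 0.7 and 4921531C22Rik 1.7. Over the whole probes, untranslated exons included, the densest 300 bp held 51 CG sites in Pced1b, 37 in Mrpl43 and 38 in Cdh24, and 37 in Zic2, 55 in Arid2 and 65 in 4921531C22Rik. The kinds overlapped by this measure, so the contrast between the stretches rests partly on how they were chosen. Location in a neighbour's coding exon did not go with many reads at every promoter.
Zic2: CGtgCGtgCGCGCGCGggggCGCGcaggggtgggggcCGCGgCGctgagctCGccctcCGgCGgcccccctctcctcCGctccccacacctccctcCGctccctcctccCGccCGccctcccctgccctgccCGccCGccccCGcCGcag
Arid2: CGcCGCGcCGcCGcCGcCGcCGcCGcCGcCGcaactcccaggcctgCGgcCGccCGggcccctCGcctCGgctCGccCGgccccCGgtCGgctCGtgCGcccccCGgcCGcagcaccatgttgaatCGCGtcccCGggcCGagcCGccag
4921531C22Rik: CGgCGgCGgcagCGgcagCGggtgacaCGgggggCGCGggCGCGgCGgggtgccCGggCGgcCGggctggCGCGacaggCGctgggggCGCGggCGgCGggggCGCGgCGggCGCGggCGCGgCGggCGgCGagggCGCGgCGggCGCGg

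The label of sperm DNA was checked against imprinted and germline promoters. H19, which is methylated on the paternal copy, had 25.3 normalized read-pairs in controls and 18 in DEHP males of C57BL/6J, and 18.8 and 17.5 in those of FVB/N. Meg3 and Gm7325 of the same list had 25.8 and 24.6 in C57BL/6J controls, whereas the Rasgrf1 probe had 2.4. The 4 promoters of this list summed to 78.1, 40.3, 43.1 and 34.1 in the same order of groups. H19 had the most over the 4 groups together, although Meg3 was slightly higher in C57BL/6J controls. The 14 maternally methylated promoters, which sperm should lack in methylated form, had medians of 3.85, 4.25, 3.2 and 4.15 and sums of 85.5, 63.9, 60.3 and 67.1. Nnat was the highest of them with 26.5, 9.5, 18.1 and 14.6, so the list was not uniformly low. Germline promoters that are methylated in somatic cells should also lack methylation in sperm, and 14 of 16 listed were found. They had medians of 5.25, 4.25, 7.7 and 3.85, against 5.0, 5.3, 3.0 and 4.9 over all promoters. As deposited, the list was thus above all promoters in both control groups, most in FVB/N, and below them with DEHP. Its sums were 105, 80.6, 109 and 73.7, with Tdrd1 the most abundant over the 4 groups together. Tex101 was above Tdrd1 in 3 groups, with 16.9 against 15.0, 13.4 against 12.8 and 13.2 against 12.4, and below it in FVB/N controls, with 7.9 against 15.4. Dazl, an RNA-binding protein of germ cells, had 7.5, 3.8, 10.6 and 2.8. None of these marker promoters was at 0 in any group. As deposited, the germline sum was thus higher in both control groups. With means scaled to equal sums over all promoters it was 76.6 in controls and 86.6 in DEHP males of C57BL/6J, so the direction turned in that strain, and 127 and 80.7 in those of FVB/N. Its part in the results below was not tested.

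The members carried few reads in every group. Their median level was 2.4 normalized read-pairs in controls and 2.3 in DEHP males of C57BL/6J, and 1.8 and 2.3 in those of FVB/N, against 5.0, 5.3, 3.0 and 4.9 over all promoters. The median of the authors' SD among members was 1.7, 1.3, 1.6 and 1.2. It was thus below the median level in each group and closest to it in FVB/N controls. Per 100 CG sites the medians were 1.98, 1.91, 1.45 and 1.85, against 13.8, 13.1, 8.44 and 12.3 over all promoters. Members were 7.55% of all promoters and held 19.1% of the CG sites and 3.85%, 3.63%, 4.48% and 3.76% of the normalized read-pairs. They were chosen by CG number, so the large share of CG sites follows from the choice. Part of the low level per CG site does too. Members lay below the median of all promoters in 70.6%, 79.9%, 69.2% and 76.3% of cases. The mean was under 1 normalized read-pair for 195 members (11.5%) in controls and 357 (21%) in DEHP males of C57BL/6J, and for 350 (20.6%) and 441 (26.0%) in those of FVB/N. Over all promoters these shares were 8.8%, 4.66%, 14.8% and 8.04%. With equal sums the share of members was 21.3% in C57BL/6J controls against 21% in DEHP, so the difference between the treatments was lost there. With equal medians the share in C57BL/6J was 14.9% in controls against 26.5% in DEHP. In FVB/N the share stayed higher in DEHP. It was 14.6% in controls against 26.0% with equal sums, and 9.19% against 31.2% with equal medians. Among the members, 4, 17, 9 and 20 were listed at 0. At least 10 normalized read-pairs were reached by 220, 63, 108 and 84 members.

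Among the members the level was lower at higher CG number. In C57BL/6J controls the median was 2.95 for the 872 members with up to 120 CG sites, 2.3 for the 428 with up to 140, 2.1 for the 217 with up to 160 and 1.7 for the 180 above. Between the lowest and the highest class it went from 2.95 to 1.1 with DEHP in the same strain, and in FVB/N from 2.1 to 1.5 in controls and from 2.8 to 1.0 with DEHP. The rank correlation of level with CG sites over the 1697 members was -0.18, -0.28, -0.15 and -0.27 in the order of groups above, as a description over promoters that share libraries. At the threshold, the 70 members with the fewest CG sites had medians of 3.3, 3.4, 2.15 and 4.1, and the 66 promoters with 100 CG sites that met the other criteria had 1.9, 2.5, 1.8 and 2.25. Adamtsl3 stood just inside with 19.3, 10.3, 11.8 and 10.3 normalized read-pairs, and Emg1 just outside with 24.7, 7.3, 19.7 and 7.6. Both were taken from the promoters with the highest means on their side, so they stand far above these medians.

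**Figure D1:**
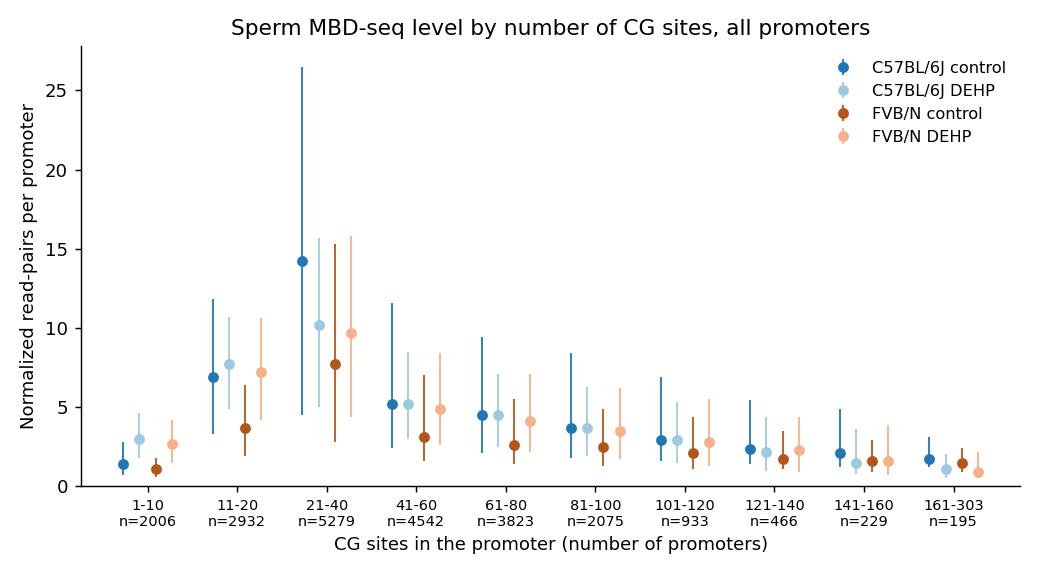
Median normalized read-pairs per promoter (points) with quartiles (lines) for all promoters in classes of CG sites, in the 4 groups. The highest medians stand at 21 to 40 CG sites, 14.2 in C57BL/6J controls, and the 4 classes over 100 CG sites lie below 3 in every group.

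The members with the most CG sites had few reads, as most members did. 4921531C22Rik, with 303 CG sites, had 1.7 ± 0.7 normalized read-pairs (authors' mean ± SD, 5 males) in controls and 1.3 ± 1.1 in DEHP males of C57BL/6J, and 1.8 ± 0.6 and 2.2 ± 1.3 in those of FVB/N. Papd7, which encodes a non-canonical poly(A) polymerase, had 275 CG sites and 1.2 ± 1.2, 0.5 ± 0.4, 1.0 ± 1.7 and 0.2 ± 0.4. Zcchc14, a zinc finger gene, had 254 CG sites and 1.9 ± 0.6, 0.3 ± 0.7, 1.2 ± 1.7 and 1.7 ± 0.8. The SD was below the mean in every group of 4921531C22Rik, and equal to or above it in 3 groups of Papd7 and 2 of Zcchc14. No pair of groups was shown to be separate in these promoters. Of the members with at least 150 CG sites the lowest were Zic2, a zinc finger transcription factor, Arid2, a subunit of a chromatin remodelling complex, and Rcor1, a corepressor. Their means lay between 0.0 and 0.9 in the 4 groups. Rcor1 was at 0.0 ± 0.0 in FVB/N DEHP.

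Medians of the homeobox, basic helix-loop-helix, and FGF and receptor tyrosine kinase lists lay below that of all members in each group, without a test, as did that of the chromatin regulators. The lists hold symbol families chosen with earlier results known. The 23 homeobox members outside the families left out had medians of 1.9, 1.0, 1.1 and 0.9 normalized read-pairs. The 8 helix-loop-helix members had 2.0, 0.6, 1.35 and 0.75, and the 13 members of FGF and receptor tyrosine kinase signalling 1.8, 0.8, 1.2 and 1.1. All members together had 2.4, 2.3, 1.8 and 2.3. Single genes stood above their list. Pou4f1, a homeobox factor of sensory neurons, had 15.1 ± 2.0, 6.4 ± 1.8, 5.9 ± 5.6 and 7.3 ± 2.5. Id4, an inhibitor of basic helix-loop-helix factors, had 9.9 ± 2.8, 6.2 ± 3.3, 6.6 ± 1.8 and 10.1 ± 4.2.

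The 36 members for ubiquitin conjugation, ligation and removal had the highest median of the lists in C57BL/6J controls, with 3.3, 2.95, 2.25 and 2.65 over the groups. The 35 chromatin regulators had 1.9, 1.5, 1.5 and 1.8. Their highest promoters were Pcgf5, of a Polycomb complex, with 19.9 ± 3.9, 7.1 ± 2.8, 15.3 ± 8.4 and 9.4 ± 1.5, and Tet3, a dioxygenase that oxidizes methylated cytosine, with 14.4 ± 1.4, 8.5 ± 4.2, 9.0 ± 4.0 and 11.7 ± 5.1. Among the 11 Wnt signalling members the highest was the ligand Wnt9a with 28.1 ± 8.8, 11 ± 5.8, 24.1 ± 6.7 and 8.2 ± 2.3, followed by the receptor Fzd9 with 17.4 ± 8.0, 6.7 ± 1.8, 19.1 ± 3.4 and 10.7 ± 4.9. Medians of the Wnt list were 2.1, 1.9, 1.9 and 2.2. The 17 members of TGF-beta and BMP signalling had 2.6, 2.5, 1.9 and 2.3, and were led by Bmp1, a procollagen protease, with 32.4 ± 8.1, 11.3 ± 5.0, 27.0 ± 3.9 and 12.7 ± 3.6. The 21 ion channels had 2.6, 2.5, 2.0 and 2.2, and the 10 members of axon guidance and cell adhesion 3.0, 2.95, 1.7 and 1.7. The 11 neurotransmitter and neuropeptide receptors had 2.1, 2.1, 2.7 and 2.0, the 13 members of cell cycle and DNA repair 3.1, 3.1, 2.0 and 1.5, and the 16 MAP kinases and dual-specificity phosphatases 2.45, 1.85, 1.8 and 2.3. Clustered protocadherins had 58 promoters in the table and none among the members.

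Against this low background, 265 members (15.6%) were at or above the median of all promoters in all 4 groups, compared with 8685 (38.6%) of all promoters. These promoters were chosen by their level, so the level is a description. They are called high members here. The 10 with the highest mean over the groups began with 3110070M22Rik, at chr13:119488185-119490384. It had 234.6 ± 80.8 normalized read-pairs in controls and 23.9 ± 10.5 in DEHP males of C57BL/6J, and 617.5 ± 97.7 and 46.2 ± 7.6 in those of FVB/N. Both control groups were above both DEHP groups, and FVB/N controls were the highest. Of its 51-base sequences sampled every 20 bp, 60.2% occurred once in the reference, 32 of 108 occurred in 2 copies and the most frequent in 102 copies, and repeats are masked over 33.5% of the probe. Its count is uncertain for that reason.

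The sequence with 102 copies starts 1000 bases upstream of the gene start and is printed to show that this stretch of the 3110070M22Rik probe is a simple repeat without a CG site.
3110070M22Rik repeat: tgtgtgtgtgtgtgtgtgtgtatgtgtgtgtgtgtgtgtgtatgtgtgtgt

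The next high members had unique sequence. Pced1b, at chr15:97245107-97247306, had 72.0 ± 20.6 normalized read-pairs in controls and 18.2 ± 7.2 in DEHP males of C57BL/6J, and 65.0 ± 9.4 and 16.5 ± 5.0 in those of FVB/N. Exons of Amigo2, a cell adhesion gene, cover 99.1% of its probe. 1600002K03Rik had 61.1 ± 21.8, 18.9 ± 9.4, 44.2 ± 7.7 and 17.9 ± 5.6, with 63.3% of its probe in exons of Cirbp, a cold-inducible RNA-binding protein. Mrpl43, of the large subunit of the mitochondrial ribosome, had 55.2 ± 20.8, 17.6 ± 9.2, 43.8 ± 5.8 and 14.8 ± 3.1, with 82.6% of its probe in exons of Twnk. In each of these promoters both control groups had the higher means and, within a treatment, the strain means differed by less than the SD of the C57BL/6J group.

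The same order held for Cdh24, a cadherin, with 52.6 ± 20.6, 15.1 ± 4.3, 46.1 ± 5.7 and 14.9 ± 4.5. Acd, a telomere protein of the shelterin complex, had 47.7 ± 19.0, 12.1 ± 5.2, 39.1 ± 7.6 and 10.1 ± 2.4. Rxrb, a nuclear retinoid X receptor, had 46.5 ± 20, 17.7 ± 7.6, 33.4 ± 12.8 and 21.5 ± 4.3, with 72.1% of its probe in exons of the zinc transporter gene Slc39a7. Drap1, a transcriptional repressor, had 48.0 ± 20.9, 12.9 ± 6.2, 32.7 ± 8.4 and 15.0 ± 9.1, 2010320M18Rik had 49.0 ± 23.4, 14.4 ± 7.8, 30.5 ± 6.5 and 14.5 ± 3.6, and the kinase gene Map4k2 had 45.2 ± 21.8, 15.8 ± 5.8, 31.3 ± 12.3 and 16.6 ± 3.0. The choice by the mean over the 4 groups favours promoters with high control means, so the order of the groups in these 10 is a description too. Bcl2, an inhibitor of cell death, had 11.8, 15.0, 7.4 and 14.4, with DEHP means close to those of Cdh24, and was not among them. Per CG site, 8 members were at or above the median of all promoters in all 4 groups, namely 1600002K03Rik, 3110070M22Rik, Cdh24, Map4k2, Mrpl43, Noc4l, Pced1b and Rxrb. This measure divides by the CG number on which members were chosen, which lowers that count. Pced1b had 58.1 normalized read-pairs per 100 CG sites in C57BL/6J controls and 52.4 in FVB/N controls.

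**Figure D2:**
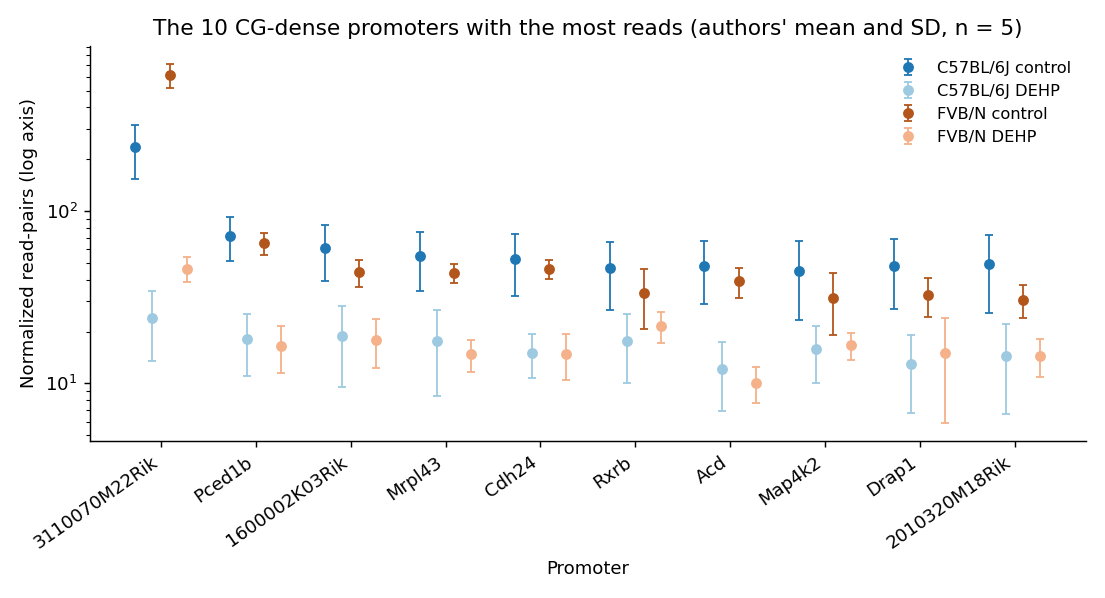
Authors' mean (points) and SD (lines, n = 5) of normalized read-pairs on a log axis for the 10 members with the highest mean over the 4 groups. Both DEHP means lie below both control means at each promoter, an order that the choice by the mean over the groups favours, and 3110070M22Rik reaches 617.5 in FVB/N controls.

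The high members differed in sequence layout from the other 1432. They held fewer CG sites (median 113 against 121), a lower ratio of observed to expected CG (0.659 against 0.724) and a similar GC content (56.7% against 56.3%). The densest 300 bp held 46 CG sites in both classes, and its centre lay within 300 bp of the gene start in 77.4% of high members and 65.5% of the others. The profiles differed most in the middle of the probe. At 1200 to 1100 bases upstream there were on average 1.97 CG sites per 100 bp in high members and 3.44 in the others, whereas in the last 100 bases before the start there were 13.4 and 12.6. In the 100 bases farthest upstream, high members held slightly more, 1.92 against 1.67, and the median share of CG sites over 1000 bases upstream was 14.5% against 14.2%. The median number of CG sites more than 500 bases upstream was 36 against 48. Of the 593 members with 20 to 39 CG sites there, 23.6% were high members, and of the 546 with 60 or more, 8.06%. The 108 members with fewer than 20 had a share of 14.8%, so the order was not monotonic. No test was run, since promoters of the same libraries are not replicates.

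**Figure D3:**
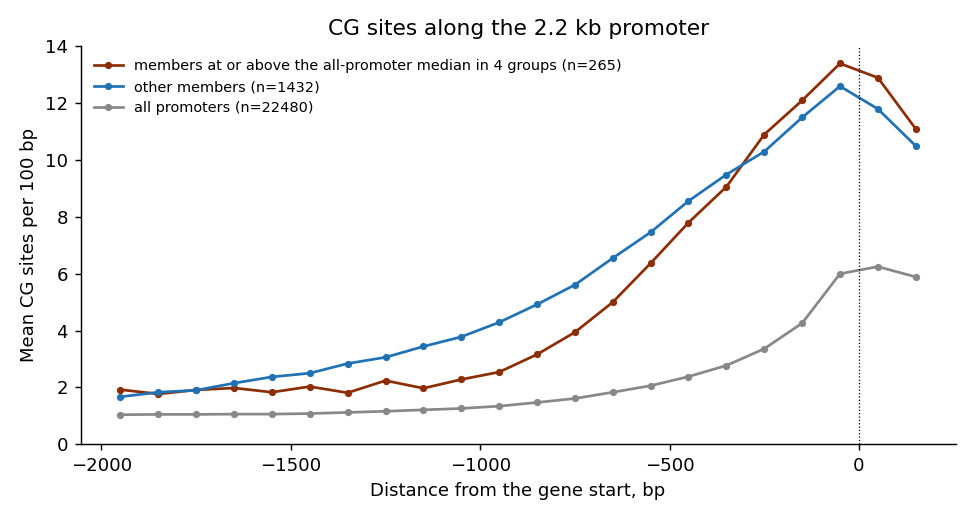
Mean number of CG sites per 100 bp against distance from the gene start in bp, for high members, other members and all promoters. High members have fewer CG sites than other members between about 1500 and 500 bases upstream and slightly more at the start, 13.4 against 12.6.

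Many of the high members lie over a neighbouring gene. Another coding gene overlapped 57.4% of high members, 43.4% of the other members and 26.6% of all promoters, in GENCODE M21. At least 50% of the probe lay in exons of another coding gene in 18.9%, 9.29% and 4.41%. In C57BL/6J controls the median level was 2.4 for the 949 members without such exons, 2.1 for the 335 with under 25% of the probe in them, 2.9 for the 230 with under 50% and 3.8 for the 183 above. The last class also had the highest median in the other groups, at 3.0, 2.5 and 2.9. This was not particular to members. Promoters with at most 100 CG sites also had their highest median in that class in each group, at 12.4, 7.9, 7.25 and 8.35. The share of high members among the members of these classes was 12.4%, 15.2%, 20% and 27.3%. The rank correlation of level with exon share was 0.13, 0.08, 0.13 and 0.11 in the 4 groups, which is weak. Overlapping probes share reads, and 684 members (40.3%) overlap another probe, against 16.0% of all promoters and 48.3% of high members.

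**Figure D4:**
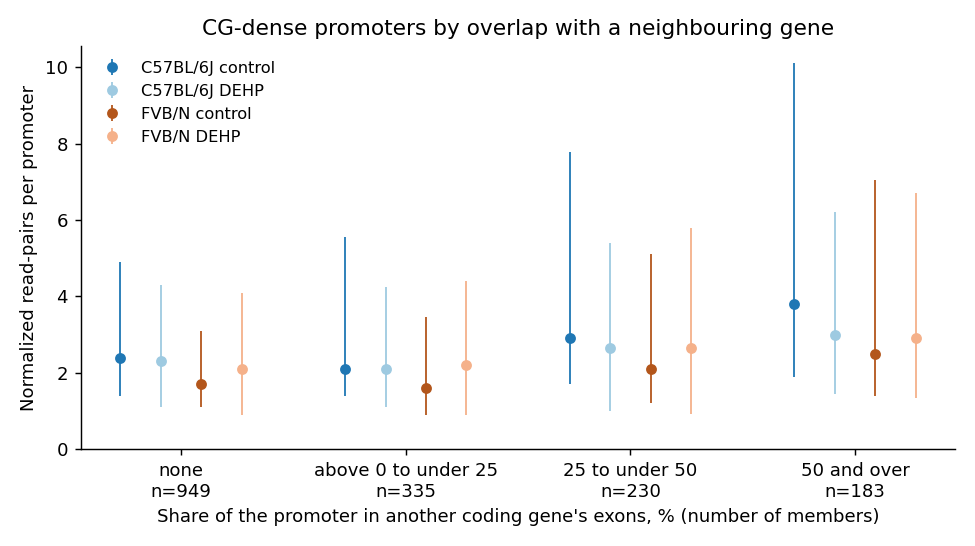
Median normalized read-pairs (points) with quartiles (lines) of the 1697 members in classes of the share of the probe that lies in exons of another coding gene, in the 4 groups. The class of 50% and over has the highest median in every group, 3.8 in C57BL/6J controls, with quartiles that overlap those of the other classes.

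Expression in testis cells, from an independent dataset whose scale is not stated, was not lower in high members than in the others. High members had medians of 6.91 in spermatogonia, 6.63 in spermatocytes, 6.33 in spermatids and 6.67 in Sertoli cells (248 genes with a value). The other members had 6.59, 6.12, 5.98 and 6.46 (1327 genes), and all promoters 5.80, 5.67, 5.68 and 5.71 (17133 genes). Genes annotated to spermatogenesis made up 1.13% of high members, 1.75% of the others and 1.7% of all promoters, and genes of the sperm proteome 2.64%, 3.84% and 3.76%. By chromosome, the share of high members ranged from 6.67% on chromosome 3 to 24.6% on chromosome 14.

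Whether prenatal DEHP changed these promoters was asked in each strain by the ratio of DEHP to control means (log2, pseudocount of 1 normalized read-pair). A pair of groups were called separate where mean ± 1.789 SD, widened for rounding, did not overlap. A library of 5 cannot lie farther from its mean, so every library of 1 group is then above every library of the other. Overlap of the ranges leaves the order of the libraries unknown, so the counts are lower limits.

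In C57BL/6J, as deposited, the members had lower means in DEHP. The median log2 ratio was -0.28 over members (quartiles -0.68 and 0.11) and -0.10 over all promoters, a difference of -0.18. The DEHP mean was the lower in 1144 members (67.4%), against 54.8% of all promoters. Every DEHP library was below every control library in 14 members (0.825%), where the share over all promoters was 1.42%. None was separate in the other direction, where the share over all promoters was 0.249%. As deposited, both shares among members were below those of all promoters. Direction and counts depended on scaling, since the summed means of the C57BL/6J groups differ. With equal sums the median over all promoters moved by 0.43 to 0.33, the members had 0.10 and so the opposite direction, and 3 members (0.177%) were separate in each direction. Over all promoters the shares were then 1.02% above and 0.129% below. The 3 members below are too few to set their share apart from that of all promoters. With equal medians 16 members were below (1.88% of all promoters) and 0 above (0.222%). Relative to all promoters the members had -0.23 and -0.15 under these scalings.

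The 3 largest ratios among the separate members of C57BL/6J were those of 3110070M22Rik, Lsm8 and Mepce. 3110070M22Rik fell by 3.24 on the log2 scale. From mean and SD, its libraries can lie only between 89.9 and 379 in controls and between 4.98 and 42.8 in DEHP. Lsm8, which binds U6 small nuclear RNA, had 16.1 ± 4.2 in controls and 2.8 ± 1.6 in DEHP and fell by 2.17, but 35.2% of its sampled sequences occur once in the reference, so its count is uncertain. Mepce, the capping enzyme of 7SK RNA, had 3.8 ± 1.0 and 0.1 ± 0.3 and fell by 2.13, which rests on few reads. Tab2, an adaptor of inflammatory kinase signalling, had 1.9 ± 0.6 in controls and was listed at 0.0 ± 0.0 in DEHP. 3110070M22Rik, Mepce and Tab2 were separate under each of the 3 scalings. The other 10 were Arhgap20, Eif5b, Fkbp10, Gkap1, Lrrc56, Pced1b, Pcgf5, Pou4f1, Prdx5 and Rac3. Among them Prdx5, a peroxiredoxin, had 16.1 ± 2.0 and 4.8 ± 2.5, and Rac3, a small GTPase, 36.0 ± 8.7 and 12.8 ± 4.1.

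In FVB/N, as deposited, the means of the members were about level while those of all promoters were higher in DEHP. The median log2 ratio was 0.06 over members (quartiles -0.39 and 0.47) and 0.35 over all promoters, a difference of -0.29. The DEHP mean was the lower in 760 members (44.8%), against 28.7% of all promoters. Every DEHP library was below every control library in 12 members (0.707%), where the share over all promoters was 0.859%, and above in 4 (0.236%), where it was 0.774%. With equal sums 14 were below (1.04% of all promoters) and 1 above (0.627%), and with equal medians 33 below (3.25%) and 0 above (0.125%). Equal medians moved the median over all promoters by -0.52 to -0.17 and that of the members to -0.40, so the direction of both turned with the scaling. The difference from all promoters was then -0.22. The 12 members below were separate under each of the 3 scalings, and none of the 4 above was.

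The largest fall in FVB/N was again that of 3110070M22Rik, by 3.71 on the log2 scale, with libraries that can lie only between 443 and 792 in controls and between 32.5 and 59.9 in DEHP. Kcnj4, an inwardly rectifying potassium channel, had 16.3 ± 5.1 in controls and 3.2 ± 1.8 in DEHP and fell by 2.04. Pced1b fell by 1.92. Acd fell by 1.85 and Csad, an enzyme of taurine synthesis, by 1.63, from 16.3 ± 4.1 to 4.6 ± 1.6. The remaining members below were 1600002K03Rik, Bmp1, Cdh24, Fam216a, Gm10941, Mrpl43 and Ogfod2. The 4 members above were Gm5129 with 1.3 ± 0.5 in controls and 8.1 ± 3.1 in DEHP, D17Wsu92e with 0.9 ± 0.5 and 6.3 ± 2.2, the ubiquitin ligase gene Znrf2 with 1.6 ± 1.4 and 7.4 ± 1.6, and Rer1, of protein retention in the endoplasmic reticulum, with 3.1 ± 1.5 and 8.2 ± 1.0. Their log2 ratios were 1.98, 1.94, 1.69 and 1.17 in FVB/N. In C57BL/6J, Gm5129 had -0.12 and Rer1 -0.10, D17Wsu92e had 0.25 and Znrf2 1.08.

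The strains shared no libraries, so their ratios can be set side by side. Each submission held males of both strains, however, so the ratios of both strains share any difference between the submissions. Pced1b and 3110070M22Rik were separate in both strains with DEHP below, that is 2 of 1697 members, where it was 39 of 22480 promoters. The share was not higher among members. With equal sums Pced1b was not separate in C57BL/6J, and 3110070M22Rik alone of these was separate in both strains. With equal medians both promoters were, and Lsm8 was also separate in both strains with DEHP below. No member was separate in opposite directions in the strains. Across the 1697 members the ratios of the strains had a Pearson correlation of 0.42 (rank correlation 0.40), against 0.56 (0.53) over all promoters, as a description across promoters. Both ratios were below the all-promoter median in 47.1% of members, against 34.3% of all promoters. The difference between strains in single members was not tested here.

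Among the members the ratio was lower at higher CG number. In C57BL/6J the median log2 ratio was -0.21 for members with up to 120 CG sites, -0.28 with up to 140, -0.34 with up to 160 and -0.48 above. In FVB/N it was 0.16, 0.05, -0.05 and -0.28 in the same classes. Over all promoters the order by CG number was not monotonic, since those with 1 to 10 CG sites had 0.61 and 0.75 in the strains and those with 21 to 40 had -0.41 and 0.23. In C57BL/6J the latter were below the members with up to 160 CG sites. The classes above 140 CG sites were low in both strains relative to all promoters, which had -0.10 and 0.35.

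**Figure D5:**
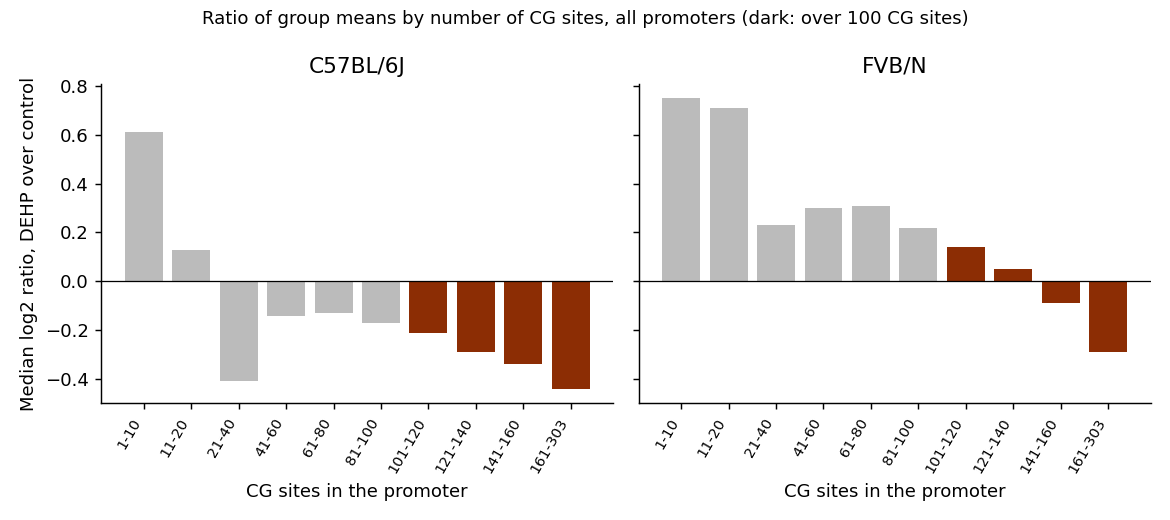
Median log2 ratio of DEHP to control means (pseudocount 1) for all promoters in classes of CG sites, by strain, with classes over 100 CG sites dark. The bars over 100 CG sites go down from -0.21 to -0.44 for C57BL/6J and from 0.14 to -0.29 for FVB/N, promoters with 1 to 10 CG sites have the highest bars, 0.61 and 0.75, and those with 21 to 40 have -0.41 in C57BL/6J.

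The ratio also varied with the level, and the level was taken as the mean of the control and DEHP means of the other strain so that it did not share libraries with the ratio. In C57BL/6J the median ratio of members was -0.37 for a level under 1 normalized read-pair, -0.08 from 1 to 3, -0.23 from 3 to 6, -0.60 from 6 to 10 and -1.23 for the 94 members at 10 or more. In FVB/N it was -0.26, 0.05, 0.39, 0.19 and, for the 163 members at 10 or more, -0.36. The ratio thus rose and then fell with the level in both strains. Over all promoters it also rose and fell, with 0.13, 0.25, 0.05, -0.33 and -0.83 in the former strain and 0.10, 0.38, 0.61, 0.51 and 0.02 in the latter, and each class of members lay below the same class of all promoters. High members, which were chosen on these same levels, had -0.63 in C57BL/6J and 0.06 in FVB/N, or -0.52 and -0.29 relative to all promoters.

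Between the strains, C57BL/6J controls had the higher means as deposited. The median log2 ratio of C57BL/6J to FVB/N was 0.39 over members and 0.54 over all promoters in controls, and 0.00 and 0.04 in DEHP. With equal sums the ratio in controls was -0.10 over members and 0.00 over all promoters, so its direction rested on the scaling. In controls, 5 members (0.295%) were separate with C57BL/6J above, where the share over all promoters was 1.06%. The other direction held 1 (0.0589%), where the share over all promoters was 0.0267%. Those above were Pwwp2b, with 8.3 ± 3.4 against 0.3 ± 0.6 in FVB/N, the metalloproteinase gene Mmp17, with 4.3 ± 1.1 and 0.5 ± 0.6, Pcid2, Rnu12 and Setd5. Their log2 ratios were 2.84, 1.82, 1.30, 1.20 and 0.87. None of these 5 was separate with equal sums (0.307% of all promoters above, 0.111% below) or equal medians (0.289% above, 0.129% below), where 2 members were below. 3110070M22Rik was the promoter below and was separate under each of the 3 scalings. Among DEHP groups no member was separate (0.307% and 0.0311% of all promoters above and below).

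The strain ratio as deposited was largest in members with at least 10 known variants between the strains. Pairs of both strains were aligned to mm10, the reference of the C57BL/6J strain. A loss of FVB/N pairs at variants and a difference in methylation therefore cannot be told apart, in this or any other strain ratio here. The 917 members without a promoter variant had a median log2 ratio of C57BL/6J to FVB/N of 0.35 in controls and -0.04 in DEHP, the 637 with 1 to 9 variants had 0.40 and 0.05, and the 143 with at least 10 had 0.55 and 0.23. Without regard to sign the medians were 0.44, 0.47 and 0.57 in controls and 0.30, 0.29 and 0.37 in DEHP, so the class of 1 to 9 variants did not stand apart in DEHP. With equal sums the signed medians in controls were -0.13, -0.08 and 0.06 and those without sign 0.32, 0.33 and 0.38, so the direction in the first classes turned while the order of the classes did not. Ranks of the members were similar across groups, with rank correlations from 0.75 between C57BL/6J DEHP and FVB/N controls to 0.89 between the DEHP groups. Over all promoters they ranged from 0.83 to 0.92.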

How the data were processed

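Sperm DNA of 5 males per group was captured with a methyl-CpG binding domain and sequenced in pairs. Per the submitters' notes the authors used Bowtie 0.12.7 to align pairs to mm10, removed ambiguous pairs, pairs more than 600 bp apart and pairs without CpG, counted the pairs on each probe and applied edgeR normalization. The signal used here is the mean and SD per group of normalized read-pairs that the authors deposited. The expression score per gene was deposited by the authors from an independent dataset, on an unstated scale. The 9 deposited columns of the authors' own comparisons hold log2 fold changes, p-values and false discovery rates and were not used. No column holds single libraries, and no test was run.

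Computed here were medians, shares, log2 ratios of means (pseudocount 1) and separation of libraries by mean ± 1.789 SD (Python 3.11.15, numpy 2.4.6, pandas 2.3.3). For rounding, the mean and the SD were each widened by 0.05, an allowance that was scaled along with the means. The separation was tested on simulated data. CG positions, repeats and sequences came from GRCm38.p6, and exons from GENCODE M21. Named are the 10 members with the highest mean, the 3 with the most CG sites, the 3 lowest with at least 150 CG sites, the 3 separate members with the largest ratio in each strain and direction, up to 2 members per gene list, and promoters at the threshold. Those of the gene lists and at the threshold were taken by the highest mean over the 4 groups. Others were named after their values were seen. The members and the 13 gene lists, from which 19 symbols of unrelated genes were removed, were chosen with earlier results of these data known. The sources used here do not state whether males of a group came from separate litters, so the SD measures the spread between these males. Alternatives were scaling, pseudocount, a filter on low means, a stricter bound, a higher minimum of CG sites and removal of overlapping probes.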

Additional observations from a re-analysis of the deposited data

How the results depend on the processing

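Median levels of the members lay between 1.75 and 3.1 in controls and 1.6 and 2.9 in DEHP males of C57BL/6J under the alternatives, and between 1.6 and 2.67 and between 1.5 and 2.9 in those of FVB/N. The median log2 ratios relative to all promoters stayed between -0.29 and -0.12 in C57BL/6J and between -0.44 and -0.22 in FVB/N, and the strain ratio in DEHP between -0.05 and 0.01. The share of members under 1 normalized read-pair became 21.3% in C57BL/6J controls with equal sums and 9.19% in FVB/N controls with equal medians. High members numbered 63 of the 689 with the highest CG numbers, 137 of the 1013 without overlapping probes, 57 with the upper quartile as threshold and 8 per CG site. The count per CG site is lowered by the choice of members by CG number.

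Of 48 alternative counts of separate members, 23 moved by over 1.5 times or to or from 0. In C57BL/6J, DEHP below went from 14 to 3 with equal sums, 3 with a bound of 2.5 SD, 5 at the higher CG minimum and 8 without overlapping probes, and DEHP above from 0 to 3 with equal sums. In FVB/N, DEHP below went from 12 to 33 with equal medians, 6 with 2.5 SD, 3 at the higher CG minimum and 5 without overlapping probes. DEHP above went from 4 to 1 with equal sums, 0 with equal medians, 0 with 2.5 SD, 0 at the higher CG minimum and 2 without overlapping probes. In controls, C57BL/6J above went from 5 to 0 with equal sums or medians, 1 with 2.5 SD, 2 at the higher CG minimum and 2 without overlapping probes, and C57BL/6J below from 1 to 2 with equal sums or medians and 0 with 2.5 SD or without overlapping probes. The smaller sets hold fewer members by construction. The cause of the other shifts was not tested. No paired analysis was possible because the table holds group means only, and for the same reason no replicate was left out. Low read numbers limit the precision, with median SDs of 1.2 to 1.7 against median levels of 1.8 to 2.4.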
